A study of Mus musculus with 30 samples.

Results

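The clustered histone genes of the mouse were examined in testis of Ythdc2 mutant mice. They were taken as the protein-coding rows of the adult count table whose symbol begins with Hist1h, Hist2h, Hist3h or Hist4h. The adult table uses newer symbols for most of them, so only 8 rows carried such a symbol there (Hist1h2an, Hist1h2ao, Hist1h2ap, Hist1h2bp, Hist1h2bq, Hist1h2br, Hist1h4m and Hist1h4n). A further 59 rows carried one as the older symbol of the same gene ID in the reference name table, which gave 67 genes among 21859 protein-coding features and 55566 features in all. The older symbols are used throughout. By histone type the 67 genes comprised 6 H1, 18 H2A, 18 H2B, 12 H3 and 13 H4 genes. By position 54 belonged to the Hist1 cluster on chromosome 13, 10 to Hist2 on chromosome 3, 2 to Hist3 on chromosome 11 and 1 to Hist4 on chromosome 6. In the RefSeq annotation of GRCm38.p6 the Hist1 genes with a locus lay within chr13:21715711-23934913 and the Hist2 genes within chr3:96219885-96270192.

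Ythdc2 is an RNA helicase that binds m6A-modified RNA and is needed for germ cells to enter and complete meiosis. The series holds 30 testis libraries of mice labelled C57BL/6J. At postnatal day 8, 3 Ythdc2 -/- mice were compared with 3 Ythdc2 +/+ mice, and at day 10, 3 Ythdc2 -/- mice were compared with 2 Ythdc2 +/- and 1 Ythdc2 +/+ mice, pooled as controls. Each of these 12 animals gave a total RNA library and a library of ribosome-protected footprints. In adults aged 20 or 24 weeks, total RNA of 3 Ythdc2 WLA/WLA mice was compared with that of 3 Ythdc2 WLA/+ mice, so each adult control also carried 1 WLA allele. WLA is the labels' name for the adult allele. The labels name no tissue-restricted driver, and germ cells and somatic cells of the testis were taken as 1 sample.

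Replication-dependent histone mRNAs are made in S phase, when new DNA must be packed into nucleosomes. They are unspliced and, alone among metazoan mRNAs, end in a stem-loop instead of a poly(A) tail. The stem-loop is bound by Slbp, which serves their processing, export and translation, and after S phase the mRNAs are degraded through uridylation. H2A, H2B, H3 and H4 form the nucleosome core, and H1 proteins bind the linker DNA. The testis uses its own variants, among them the linker histone encoded by Hist1h1t in spermatocytes and the H2A and H2B forms encoded by Hist1h2aa and Hist1h2ba. Some clustered genes can also give polyadenylated transcripts in differentiated cells. The labels name total RNA for the total libraries and polyA RNA for the footprint libraries, and the protocol names both ribosomal RNA depletion and poly(A) selection without saying which library received which.

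Promoters of the genes on which the results turn are shown here, so that the histone types can be compared by sequence. They are RefSeq windows of GRCm38.p6, 250 bases ending at the annotated start, with matches to 4 motifs on either strand in capitals. The motifs are TATAAA as the core of a TATA box, the short element CCAAT, the octamer ATTTGCAT known from H2B promoters and AAACACA known from H1 promoters. Hist1h2ba (chr13:23934157-23934406, minus strand) faces Hist1h2aa, whose window covers most of the same bases on the other strand. Hist1h1t (chr13:23695561-23695810, plus strand) and Hist1h1c (chr13:23738557-23738806, plus strand) are a testis and a somatic H1 gene. Hist1h4f (chr13:23551669-23551918, minus strand) stands for the H4 genes, and Hist1h2bp (chr13:21787238-21787487, plus strand) is the histone gene with the most adult reads. The Hist1h2bp window ends a few bases inside its RefSeq locus, which begins at chr13:21787483.
Hist1h2ba: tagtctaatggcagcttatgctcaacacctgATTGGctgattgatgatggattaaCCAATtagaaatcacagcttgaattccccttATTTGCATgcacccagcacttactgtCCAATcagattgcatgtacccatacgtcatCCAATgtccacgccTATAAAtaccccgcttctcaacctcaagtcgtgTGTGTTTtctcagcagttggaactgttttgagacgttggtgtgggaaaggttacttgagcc
Hist1h1t: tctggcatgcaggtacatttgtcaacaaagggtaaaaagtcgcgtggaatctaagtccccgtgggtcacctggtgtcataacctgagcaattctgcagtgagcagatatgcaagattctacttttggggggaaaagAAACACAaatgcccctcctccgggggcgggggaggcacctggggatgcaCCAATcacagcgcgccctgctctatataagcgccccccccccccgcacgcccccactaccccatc
Hist1h1c: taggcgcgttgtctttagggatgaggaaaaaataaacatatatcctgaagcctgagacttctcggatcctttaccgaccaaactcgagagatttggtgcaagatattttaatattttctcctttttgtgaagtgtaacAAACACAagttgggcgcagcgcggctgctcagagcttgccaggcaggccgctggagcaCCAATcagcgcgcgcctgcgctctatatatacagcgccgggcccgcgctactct
Hist1h4f: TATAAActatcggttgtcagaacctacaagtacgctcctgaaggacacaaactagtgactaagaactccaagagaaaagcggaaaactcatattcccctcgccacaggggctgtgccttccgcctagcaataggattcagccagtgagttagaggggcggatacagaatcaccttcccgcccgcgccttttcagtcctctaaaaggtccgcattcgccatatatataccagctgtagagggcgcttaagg
Hist1h2bp: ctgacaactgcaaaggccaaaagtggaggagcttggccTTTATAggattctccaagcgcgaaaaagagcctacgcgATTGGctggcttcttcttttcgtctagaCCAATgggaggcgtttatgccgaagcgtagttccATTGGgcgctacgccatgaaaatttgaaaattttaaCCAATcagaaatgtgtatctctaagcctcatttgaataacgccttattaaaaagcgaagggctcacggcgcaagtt
A promoter window was at hand for 61 of the 67 genes. CCAAT was found in 50 of 61 windows (82.0%), against 34.5% of the 27025 windows of all genes. It was present in 17 of 17 H2A, 16 of 16 H2B, 6 of 6 H1 and 8 of 10 H3 windows, but in 3 of 12 H4 windows. TATAAA was found in 29 of 61 windows (47.5%), against 12.97% of all windows. Matches were counted anywhere in the window, so this is not a rate of TATA boxes. In Hist1h4f the match lies at the far end of the window from the start. The tatata stretches near the starts of Hist1h1t and Hist1h1c were not counted. The octamer ATTTGCAT occurred in 13 of 61 windows (21.3%), against 1.61% of all windows, and these were 7 H2A and 6 H2B windows. Windows of facing H2A and H2B genes overlap and either strand counts, so the same site can be counted for both genes. AAACACA occurred in 9 of 61 windows (14.8%), against 6.22% of all windows, and 5 of the 6 H1 windows held it. A match describes letters in the window and was not tested for function.

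The question in juvenile testis was whether loss of Ythdc2 changed the RNA level or the ribosome occupancy of these genes. The authors' deposited tables give, for each gene, an effect of knockout against controls in total RNA and in footprints, read here as log2, and an adjusted p of anota2seq. They hold no value per animal, and the base of their log scale is not stated, so no fold change was worked out from them. Values were listed for 65 of the 67 genes at both ages, and Hist1h2bq and Hist1h2br were not listed. Near-identical copies share reads that cannot be told apart, so the 65 values are not independent of each other. In whole testis, fewer cells of a type and less RNA per cell cannot be told apart.

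At day 8 the histone genes lay below zero in footprints almost without exception, while their total RNA effects lay near zero. In the authors' deposited table the footprint effect was below 0 for 64 of 65 histone genes, against 48.5% of all 15145 genes, and its median was -0.20 for the histone genes against 0.0028 for all genes. Only 2.63% of all genes had a footprint effect in the authors' deposited table at or below that median. An effect of -0.15 or less was listed in the authors' deposited table for 60 of the 65 histone genes (92.3%) and for 5.75% of all genes. None of this passed the authors' test for single genes: the smallest adjusted p of a histone gene in footprints was 0.98 in the authors' deposited table by anota2seq, and 0 of 65 histone genes passed 0.05, where the share of all genes was 0%. The tables give adjusted p-values alone, so no count at an unadjusted p can be stated. The counts behind the footprint effects are not at hand, and the part of low counts in this pattern was not tested. In adult testis, 32 of the 65 listed genes had fewer than 11 reads. Hist1h2af and Hist1h2ai, with no adult read, were listed at -0.19 in day 8 footprints in the authors' deposited table. Hist1h2bp and Hist2h2be, with 5209 and 5116 adult reads, were listed at -0.19 as well.

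The 5 histone types had day 8 footprint medians near each other and ranges of unequal width, and the types were not tested against each other. Median effects computed from the authors' deposited table were -0.23 for the 6 H1 genes, -0.19 for the 18 H2A genes, -0.19 for 16 H2B genes, -0.22 for the 12 H3 genes and -0.23 for the 13 H4 genes. In the authors' deposited table H3 genes ran from -0.25 to -0.19, H2A genes from -0.23 to -0.10, H4 genes from -0.30 to -0.093, H2B genes from -0.32 to -0.12 and H1 genes from -0.26 to 0.006. By cluster, the median from the authors' deposited table was -0.21 over 52 Hist1 genes and -0.17 over 10 Hist2 genes. The 6 listed genes that keep a Hist1h symbol in the adult table lay between -0.20 and -0.19 in the authors' deposited table.

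**Figure D1:**
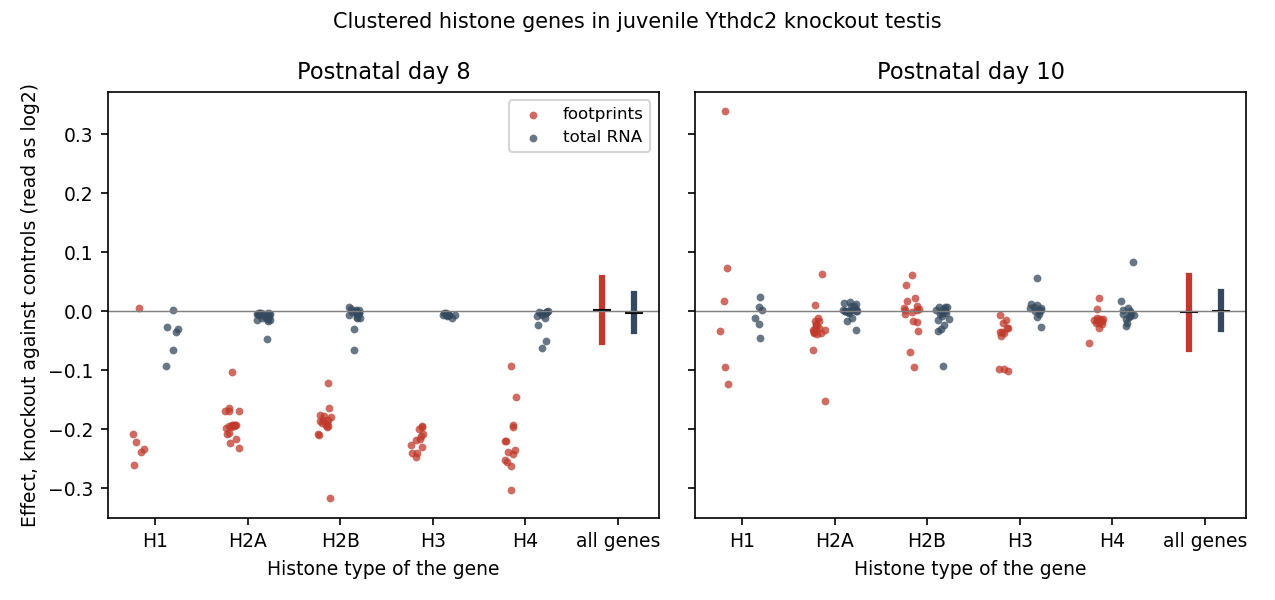
Effects of knockout against controls (vertical axis, read as log2, from the authors' deposited tables) for each clustered histone gene, by histone type, at day 8 (left) and day 10 (right). Points are genes, red for footprints and dark grey for total RNA, and the bars at the right of each panel span the quartiles of all genes with the median as a tick. At day 8 the red points lie around -0.20 with Hist1h1t at 0.006, and at day 10 they lie around -0.020 with Hist1h1t at 0.34.

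The lowest day 8 footprint effects belonged to the testis H2B gene and to H4 genes. The authors' deposited table gives -0.32 for Hist1h2ba, the testis H2B gene, -0.30 for Hist1h4f and -0.26 for Hist1h4i, both H4 genes. At the other end Hist1h1t, the spermatocyte linker histone, was listed at 0.006 in the authors' deposited table, the one value above 0. It was followed in the authors' deposited table by Hist2h4 at -0.093, the testis H2A gene Hist1h2aa at -0.10 and Hist2h2bb at -0.12. The linker histone Hist1h1a was listed at -0.21 in the authors' deposited table, close to the median of all histone genes. Without Hist1h1t the H1 median computed from the authors' deposited table was again -0.23.

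Total RNA effects lay near 0 at day 8. Their median from the authors' deposited table was -0.0059 for the histone genes and -0.0024 for all genes, and 58 of 65 histone genes lay below 0, against 52.8% of all genes. The effects were small: 54 of 65 histone genes (83.1%) lay within 0.02 of 0 in the authors' deposited table, against 33.1% of all genes. Their quartiles spanned 0.0082, against 0.063 for all genes. The counts behind these effects are not at hand at either age, so effects near 0 do not show that the RNA was unchanged. Capture of these mRNAs in the total RNA libraries was not tested. The lowest total RNA effects in the authors' deposited table were -0.093 for the somatic H1 gene Hist1h1c, -0.066 for Hist2h2be, an H2B gene, and -0.066 for Hist1h1t. The highest were 0.0071 for Hist3h2ba, 0.0029 for Hist1h2bm and 0.0025 for Hist1h2bb, all H2B genes, in the authors' deposited table. The smallest adjusted p of a histone gene in total RNA was 0.539 in the authors' deposited table by anota2seq, and 0 of 65 passed 0.05, where the share of all genes was 0.0528%.

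Taken as footprint minus total RNA, the difference computed from the authors' deposited table was below 0 for 64 of 65 histone genes, against 47.6% of all genes, with a median of -0.19 against 0.005. It was lowest for Hist1h2ba at -0.31, Hist1h4f at -0.30 and the linker histone Hist1h1e at -0.26, all from the authors' deposited table. It was highest for Hist1h1t at 0.072, Hist2h4 at -0.070 and the H4 gene Hist4h4 at -0.084, from the authors' deposited table. This difference carries no test, since the animals' values are not at hand. The labels assign different kinds of RNA to the 2 readouts, and the part of that in the difference was not tested.

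Of the facing pairs found among genes with a promoter window, the testis pair stood furthest apart in day 8 footprints. Among the 61 genes with a window there were 9 such H2A and H2B pairs, with starts 164 to 281 bases apart. Values for both genes were listed for 8 of them. Genes without a window, among them Hist2h2be and Hist1h2bc, were not searched for a partner, so the set of pairs may be incomplete. In 7 of the 8 the difference computed from the authors' deposited table was 0.042 or less, with a median of 0.013 over the 8. The middle 50% of all 65 histone genes spanned 0.038, and facing genes were not tested against others. The largest, 0.21 in the authors' deposited table, was that of the testis pair whose promoter is shown above, with Hist1h2ba at -0.32 and Hist1h2aa at -0.10 in the authors' deposited table. Hist1h2ba was the lowest of all 65 genes.

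By day 10 the footprint effects of the histone genes lay close to zero. The authors' deposited table gives a median of -0.020 for the histone genes in footprints, with 49 of 65 below 0, against 50.9% of all 14846 genes. A share of 42.2% of all genes had an effect at or below that median in the authors' deposited table. The lowest day 10 footprint effects in the authors' deposited table were -0.15 for the H2A gene Hist2h2ab, -0.12 for the linker histone Hist1h1b and -0.10 for the H3 gene Hist2h3b. Hist1h1t was the highest at 0.34 in the authors' deposited table, a value that 99.7% of all genes did not exceed. Next came Hist1h1c at 0.072 and Hist1h2aa at 0.063 in the authors' deposited table. The smallest adjusted p in day 10 footprints, 0.624 by anota2seq in the authors' deposited table, was that of Hist1h1t, and 0 of 65 histone genes passed 0.05, where the share of all genes was 0%.

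The day 10 total RNA effects had a median of 0.00029 for the histone genes in the authors' deposited table, with 30 of 65 below 0, against 48.3% of all genes. Of the 65 genes, 53 (81.5%) lay within 0.02 of 0 in the authors' deposited table, against 34.6% of all genes. The lowest were Hist2h2be at -0.093, Hist1h1b at -0.045 and the H2B gene Hist1h2bc at -0.033, and the highest were Hist4h4 at 0.083, the H3 gene Hist2h3c2 at 0.057 and the linker histone Hist1h1d at 0.024, all in the authors' deposited table. The smallest adjusted p was 0.28 by anota2seq in the authors' deposited table, and 0 of 65 passed 0.05, where the share of all genes was 0%. Footprint minus total RNA, computed from the authors' deposited table, had a median of -0.018 and was below 0 for 49 of 65 histone genes, against 51.1% of all genes. It ran from -0.15 for Hist2h3c2, -0.12 for Hist2h2ab and -0.10 for Hist1h1e to 0.065 for Hist1h2bn, 0.083 for Hist1h1c and 0.34 for Hist1h1t, from the authors' deposited table.

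Set side by side, the day 8 footprint effect lay below the day 10 effect for 65 of 65 histone genes in the authors' deposited tables. The share of all genes with this order was not worked out, so the count is a description. The ages share no animals, their tables were fitted separately and the day 10 controls were mostly heterozygous, so the difference between ages was not tested. For Hist1h2ba the authors' deposited tables give -0.32 at day 8 and -0.094 at day 10, and for Hist1h4f they give -0.30 at day 8 and -0.054 at day 10. Hist1h1t was listed at 0.006 at day 8 and 0.34 at day 10 in the authors' deposited tables. For the H2A gene Hist2h2ab the authors' deposited tables give -0.17 at day 8 and -0.15 at day 10.

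**Figure D2:**
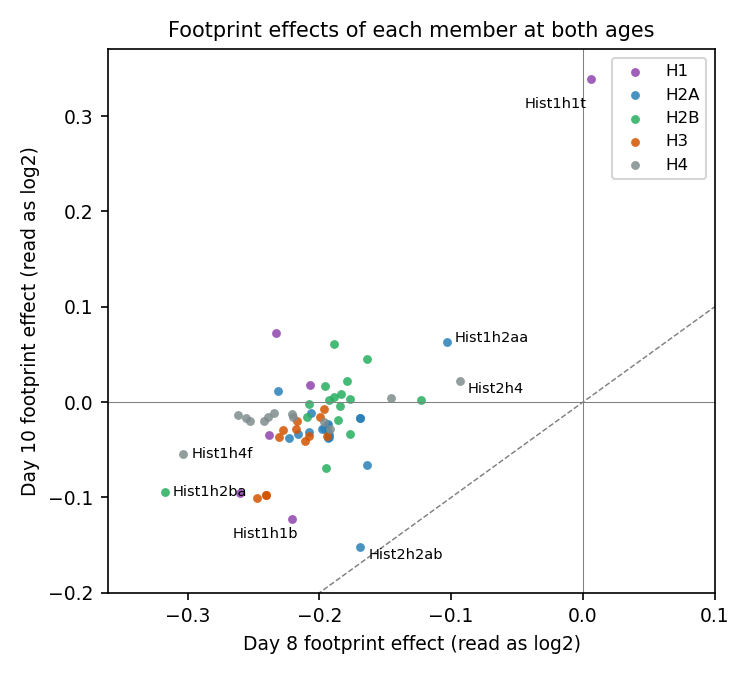
Footprint effect of knockout against controls at day 10 (vertical axis) against day 8 (horizontal axis) for 65 clustered histone genes, both read as log2 from the authors' deposited tables. Points are genes coloured by histone type and the dashed line marks equal effects. Every point lies above the line, Hist2h2ab closest to it, and Hist1h1t stands apart at the top right.

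The authors' model also gives a translation effect, the footprint change that is left after a regression on total RNA. It also gives a buffering effect, meant for a total RNA change that is offset in footprints. At day 8 no histone gene passed 0.05 in translation in the authors' deposited table by anota2seq, where 1.33% of all genes did (3.06% passed 0.15), and none passed it in buffering, where 1.49% of all genes did. The smallest adjusted p in translation was 0.124, for the H3 gene Hist1h3d with an effect of -0.41, in the authors' deposited table. At day 10, 4 of 65 histone genes passed 0.05 in translation in the authors' deposited table, where 2.68% of all genes did. They were Hist2h2be at -0.62 (adjusted p = 0.0245), the H2A gene Hist1h2ad at 0.77 (adjusted p = 0.0249), the H2A gene Hist1h2ae at -0.93 (adjusted p = 0.0319) and the H4 gene Hist1h4h at -0.51 (adjusted p = 0.047), by anota2seq in the authors' deposited table. In buffering Hist1h1t passed at day 10 with -0.38 (adjusted p = 0.0437 by anota2seq in the authors' deposited table), where 1.37% of all genes did. Its day 10 effects in the authors' deposited table were 0.0014 in total RNA and 0.34 in footprints, so the call does not show a total RNA change. The same gene had a translation effect of 0.34 (adjusted p = 0.139 by anota2seq) in the authors' deposited table, where 6.13% of all genes passed 0.15.

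Of the 4 translation calls, 3 went with footprint and total RNA effects near 0 and steep regression slopes. In day 10 footprints the authors' deposited table gives -0.028 for Hist1h2ad, -0.038 for Hist1h2ae and -0.015 for Hist1h4h. In day 10 total RNA the authors' deposited table gives 0.012 for Hist1h2ad, -0.011 for Hist1h2ae and 0.0059 for Hist1h4h. Hist2h2be was listed at -0.069 in footprints and -0.093 in total RNA, the lowest of the 65 genes there, in the authors' deposited table. Footprint minus total RNA was 0.024 for Hist2h2be and -0.040 for Hist1h2ad, each opposite in sign to the translation effect. It had the same sign as the translation effect for Hist1h2ae and Hist1h4h. The slope worked back from the effects in the authors' deposited table was -67.2 for Hist1h2ad, -80.6 for Hist1h2ae, 84.1 for Hist1h4h and -5.99 for Hist2h2be, while that of Hist1h1t was 0.15. Slopes outside the range of -1 to 2 were found for 58 of 65 histone genes (89.2%) at day 8, against 42.6% of all genes, and for 53 (81.5%) at day 10, against 48.8% of all genes, from the authors' deposited tables. The 4 genes called in translation were among these 53. The authors' deposited tables place each of the 65 genes in the class called background at both ages.

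Genes around the histone pathway were taken from lists of companions and are given in the same way. Of the listed genes of histones outside the clustered sets, 12 had values, and 9 of 12 had a day 8 footprint effect below 0 in the authors' deposited table, with a median of -0.10. In total RNA 12 of 12 lay below 0 in the authors' deposited table, with a median of -0.074, and their footprint minus total RNA had a median of -0.026. H2afx, the variant phosphorylated at DNA breaks, is known to give both a stem-loop and a polyadenylated mRNA and was listed in the authors' deposited table at -0.25 in day 8 footprints and -0.092 in total RNA. The linker histone gene H1fx was listed at -0.32 in day 8 footprints, below each clustered gene, and H2afj at -0.22 in footprints with a total RNA effect of -0.0041, by the authors' deposited table. The replacement histone genes H3f3a and H3f3b were listed at 0.025 and -0.13 in day 8 footprints, H2afz at -0.028 and the linker histone H1f0 at -0.12, in the authors' deposited table. Whether the clustered genes and those on this list differ was not tested.

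Factors that process or degrade histone mRNA had a median day 8 footprint effect of -0.014 over 30 genes in the authors' deposited table, with 20 below 0. Slbp, the stem-loop binding protein, was listed in the authors' deposited table at -0.0007 in footprints and -0.036 in total RNA at day 8, and at 0.0085 in footprints and -0.072 in total RNA at day 10. The day 8 footprint effect in the authors' deposited table was -0.029 for Npat, the activator of histone gene transcription, -0.022 for Casp8ap2 and 0.034 for Eri1, the exonuclease acting on the stem-loop. Zfp473, which binds the processing machinery, was listed at -0.066 in footprints at day 8 and at -0.22 at day 10 in the authors' deposited table. The S phase list had 21 of 29 genes below 0 in day 8 footprints and a median of -0.027 in the authors' deposited table. In total RNA the S phase list had 24 of 29 genes below 0 and a median of -0.034 in the authors' deposited table.

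Among these companions a few genes passed 0.05 in the authors' translation test. Of 12 histone genes outside the clusters, 1 passed with a positive and 1 with a negative effect at day 8. Of 30 processing factors 1 passed then, with a negative effect, and 0 of 29 S phase genes did. At day 10, 1 of 12, 1 of 30 and 2 of 29 passed in the same lists, all with positive effects. Of all genes, 1.33% passed at day 8 and 2.68% at day 10. Among those that passed were the following. At day 8 the linker histone H1fx at -1.08 (adjusted p = 0.025) and Lsm10 of the histone pre-mRNA processing particle at -0.97 (adjusted p = 0.009) had negative translation effects, and H2bfm at 0.67 (adjusted p = 0.026) had a positive one, by anota2seq in the authors' deposited table. At day 10 H1fx at 0.77 (adjusted p = 0.035), Mif4gd, a partner of Slbp in translation, at 0.81 (adjusted p = 0.012) and the replication helicase gene Mcm2 at 0.74 (adjusted p = 0.013) had positive translation effects, by anota2seq in the authors' deposited table. These are effects after the regression and can differ in sign from the measured ones: Lsm10 was listed at 0.11 in day 8 footprints, with footprint minus total RNA at 0.21, from the authors' deposited table. The translation effect of H1fx had opposite signs at the 2 ages, while the authors' deposited tables give it -0.32 in footprints and -0.17 in total RNA at day 8, and -0.19 in both at day 10. None of these lists had a gene past 0.05 in total RNA or footprints at either age. Past 0.15 alone were Lsm11, Ccne2 and Prim1 at day 8 and H2afv, Lsm4 and Cdk9 at day 10 in translation, and H1fx in day 10 total RNA, in the authors' deposited tables.

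By the authors' deposited table, none of the listed marker genes of other cell types was called at 0.05 in footprints or total RNA of either age. Of all genes, 0% were called in footprints of either age and in day 10 total RNA, and 0.0528% in day 8 total RNA. The absence of calls therefore does not show that cell types were unchanged. In day 8 footprints 3 of 3 spermatocyte markers with a value were below 0, with a median of -0.17, in the authors' deposited table. The 5 spermatogonial markers had a median of 0.012 there, and 3 of 4 Leydig cell markers were above 0 with a median of 0.17, in the authors' deposited table. At day 10 the spermatocyte median was -0.36 in footprints and 5 of 5 red blood cell markers were above 0 with a median of 0.21, in the authors' deposited table. The part of cell composition in the histone values was not tested.

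The adult libraries held 33331987 to 43707798 counted reads each, and 53 of 22446 features passed an adjusted p of 0.05 by edgeR's quasi-likelihood test. Leaving out 1 library gave 3 to 1917 such features, the last without heterozygous replicate 1. Spermatid, spermatocyte and somatic markers were present: in library-scaled CPM the protamine gene Prm1 averaged 1692 in homozygous and 1543 in heterozygous libraries, Sycp3 of meiotic chromosomes 75.04 in homozygous and 72.9 in heterozygous libraries, and the Sertoli cell gene Sox9 14.97 in homozygous and 13.5 in heterozygous libraries. Ythdc2 itself averaged 34.1 ± 1.54 CPM in homozygous libraries and 33.3 ± 3.03 CPM in heterozygous libraries (SD, n = 3 each), which does not check the genotype labels, since the table does not show the allele itself. The Leydig cell markers summed to 348 to 397 CPM in homozygous libraries, against 213 to 341 CPM in heterozygous libraries. Spermatocyte markers were also higher, at 959 to 986 CPM in homozygous libraries, against 897 to 921 CPM in heterozygous libraries. Proliferation markers were lower, at 936 to 967 CPM in homozygous libraries, against 974 to 1012 CPM in heterozygous libraries. The sums of the other cell type lists overlapped between the groups. The part of these differences in the histone values was not tested.

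In adult testis the clustered histone genes took few reads, and most of those came from a handful of genes. Whether these libraries were selected for poly(A) is not stated, so few reads of genes without a poly(A) tail need not mean low expression. The 67 genes held 18408 reads over the 6 libraries, and 13 of them (19.4%) had no read at all, against 9.1% of protein-coding features. In a library, a count of 0 allows up to 3 reads, or 0.0678 to 0.0904 CPM at these depths, and covers counting error only. Another 21 genes had 1 to 10 reads, 19 had more than 10 and fewer than 100, 14 had 100 or more, and 4 of those had 1000 or more. Of the 13 genes without an adult read, 11 were listed in the juvenile tables. The filter on low counts passed 19 of 67 histone genes (28.4%), against 73.9% of protein-coding features.

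Hist1h2bp with 5209 reads and Hist2h2be with 5116 reads, both H2B genes, held 56.1% of all histone reads, and the first 9 genes held 91.3%. These are shares of reads and are not corrected for length. By type, H2B genes summed to 52.9 CPM in homozygous and 52.2 CPM in heterozygous libraries, and H4 genes to 9.41 CPM in homozygous and 8.34 CPM in heterozygous libraries. H1 genes summed to 8.34 CPM in homozygous and 8.04 CPM in heterozygous libraries, H2A genes to 7.51 CPM in homozygous and 7.18 CPM in heterozygous libraries, and H3 genes to 2.73 CPM in homozygous and 2.87 CPM in heterozygous libraries. The 3 homozygous and 3 heterozygous libraries overlapped in each of the 5 sums, and no p is given for a sum over genes.

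The RefSeq loci of 66 genes were 375 to 911 bases long for 60 of them and longer than 1000 bases for 6. The 6 long loci, all H2B genes, held 61.6% of the histone reads. They were Hist1h2bp (14079 bases), Hist2h2be (2667), Hist1h2bc (8282), Hist1h2be (37455), Hist1h2bq and Hist1h2br (3788 each). The last pair had no read. The 60 short loci had a median of 9 reads over the 6 libraries. Hist1h2bp faces the H2A gene Hist1h2an, which had 7 reads.

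**Figure D3:**
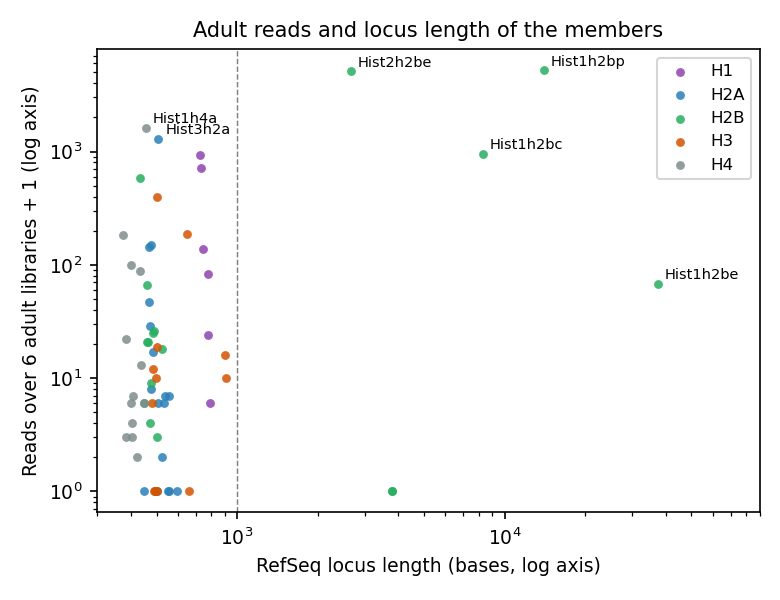
Reads over 6 adult libraries plus 1 (vertical log axis) against the length of the RefSeq locus (horizontal log axis, bases) for 66 clustered histone genes, coloured by histone type. The dashed line stands at 1000 bases. Hist1h2bp and Hist2h2be lie at the top right of it with 5209 and 5116 reads, and most loci of 911 bases or less have few reads.

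No clustered histone gene passed the test between WLA homozygous and heterozygous testis. By edgeR's quasi-likelihood test 0 of 19 tested genes passed an adjusted p of 0.05, where 0.236% of all features did. At an unadjusted p under 0.05 there was 1 histone gene, against 13.2% of all features. DESeq2 gave 0 of 19 on either measure, with an adjusted p for 9 of them, and the smallest adjusted p in the authors' deposited table was 0.765. Fold changes lay above 0 for 16 of 19 genes, against 51.5% of all features, with a median log2 fold change of 0.12 against 0.006. Some low genes can pass the filter through their higher group, so this count is a description.

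Hist1h2bp (chr13:21787483-21801561) had 21.8, 23.0 and 24.2 CPM in homozygous libraries, against 24.2, 20.4 and 22.0 CPM in heterozygous libraries. The groups overlapped, with a log2 fold change of 0.054 ± 0.077 (SE, adjusted p = 0.801 by edgeR's quasi-likelihood test). Hist2h2be (chr3:96221072-96223738) had 21.4, 22.0 and 21.3 CPM in homozygous libraries, against 22.8, 23.1 and 22.3 CPM in heterozygous libraries. Every homozygous library was lower, as it was for 10.3% of all features, but the log2 fold change was -0.079 ± 0.061 (SE, adjusted p = 0.617 by edgeR). The H4 gene Hist1h4a had 8.53, 6.66 and 6.78 CPM in homozygous libraries, against 8.01, 5.97 and 6.30 CPM in heterozygous libraries. The first library of each group was the high one and the groups overlapped (log2 fold change 0.12 ± 0.13 SE, adjusted p = 0.735 by edgeR).

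The H2A gene Hist3h2a had 5.84, 5.49 and 5.56 CPM in homozygous libraries, against 4.60, 6.35 and 5.44 CPM in heterozygous libraries. Hist1h2bc had 4.62, 4.401 and 4.17 CPM in homozygous libraries, against 4.73, 3.82 and 2.98 CPM in heterozygous libraries. Hist1h1c had 4.97, 3.86 and 3.62 CPM in homozygous libraries, against 5.14, 3.62 and 2.95 CPM in heterozygous libraries. In each of these 3 genes the groups overlapped, and adjusted p was 0.918, 0.626 and 0.873 by edgeR for Hist3h2a, Hist1h2bc and Hist1h1c in that order.

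**Figure D4:**
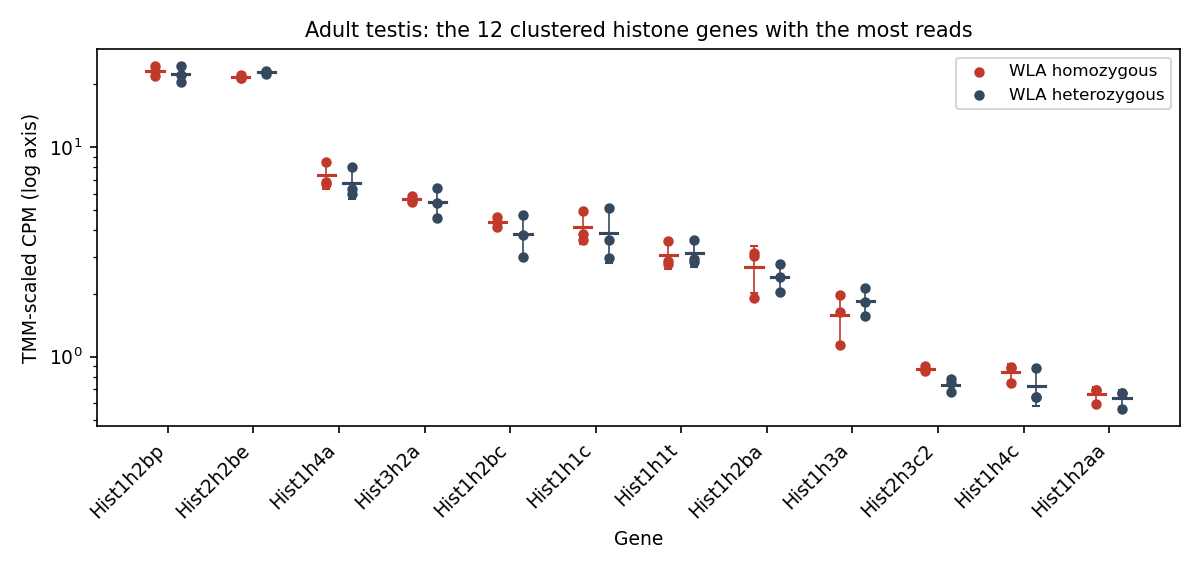
Scaled CPM (vertical log axis) of the 12 clustered histone genes with the most adult reads in 3 WLA homozygous (red, left) and 3 heterozygous (dark grey, right) libraries. Points are libraries, horizontal bars means and whiskers SDs. Hist1h2bp and Hist2h2be lie near 22 CPM in both groups and the other genes below 9 CPM, with the groups overlapping for all but Hist2h2be and Hist2h3c2.

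The testis variants did not pass the test either. Hist1h1t (chr13:23695811-23696545) had 2.76, 2.86 and 3.54 CPM in homozygous libraries, against 3.59, 2.92 and 2.82 CPM in heterozygous libraries, and 1 library of each group stood above the others. Its log2 fold change was -0.023 ± 0.15 (SE, adjusted p = 0.965 by edgeR). Hist1h2ba had 1.91, 3.14 and 3.03 CPM in homozygous libraries, against 2.40, 2.78 and 2.03 CPM in heterozygous libraries. Its partner Hist1h2aa averaged 0.661 ± 0.057 CPM in homozygous libraries and 0.635 ± 0.061 CPM in heterozygous libraries (SD, n = 3 each). Hist1h1a averaged 0.622 ± 0.091 CPM in homozygous libraries and 0.581 ± 0.149 CPM in heterozygous libraries (SD, n = 3 each). Adjusted p was 0.784 for Hist1h2ba, 0.932 for Hist1h2aa and 0.917 for Hist1h1a by edgeR.

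The widest adult differences were seen in H4, H1 and H3 genes with few reads. Hist1h4i (chr13:22040960-22041362) had 0.696, 0.512 and 0.414 CPM in homozygous libraries, against 0.387, 0.339 and 0.195 CPM in heterozygous libraries. Each homozygous library was above each heterozygous one, as for 8.99% of all features, and the log2 fold change was 0.80 ± 0.33 (SE, unadjusted p = 0.0305, adjusted p = 0.332 by edgeR's quasi-likelihood test) on 98 reads in all. Hist2h3c2 had 0.870, 0.904 and 0.854 CPM in homozygous libraries, against 0.749, 0.678 and 0.780 CPM in heterozygous libraries, again without overlap (log2 fold change 0.25 ± 0.20 SE, adjusted p = 0.626 by edgeR). Hist1h1d averaged 0.404 ± 0.126 CPM in homozygous libraries and 0.312 ± 0.026 CPM in heterozygous libraries (SD, n = 3 each, adjusted p = 0.664 by edgeR). At the low end Hist1h3a had 1.64, 1.96 and 1.138 CPM in homozygous libraries, against 2.12, 1.83 and 1.56 CPM in heterozygous libraries, with a log2 fold change of -0.23 ± 0.21 (SE, adjusted p = 0.668 by edgeR).

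**Figure D5:**
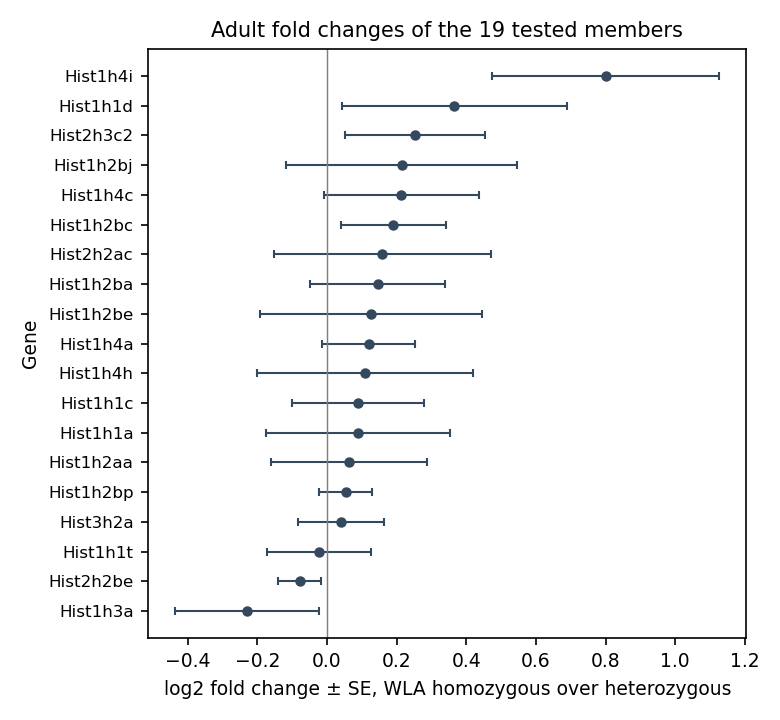
Log2 fold change of WLA homozygous over heterozygous testis (horizontal axis) for the 19 clustered histone genes that passed the filter on low counts (vertical axis), with SEs from edgeR's quasi-likelihood test. Hist1h4i is highest at 0.80 and Hist1h3a lowest at -0.23, and no gene passed an adjusted p of 0.05.

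Summed over all 67 genes, histone CPM were 81.1, 81.2 and 80.4 in homozygous libraries, against 83.9, 77.2 and 74.8 in heterozygous libraries. The means were 80.9 ± 0.456 in homozygous and 78.6 ± 4.74 in heterozygous libraries (SD, n = 3 each), a ratio of 1.03, and the heterozygous libraries lay on both sides of the homozygous ones. Without Hist1h2bp and Hist2h2be the sums averaged 36.3 ± 1.53 CPM in homozygous and 33.7 ± 3.21 CPM in heterozygous libraries (SD, n = 3 each), and the groups overlapped. The companion lists had no gene past 0.05 in adult testis by edgeR, where 0.236% of all features passed. H2afx averaged 30.0 ± 0.382 CPM in homozygous and 24.8 ± 2.35 CPM in heterozygous libraries (SD, n = 3 each, log2 fold change 0.27 ± 0.072 SE, adjusted p = 0.155 by edgeR). The spermatid linker histone genes were far above the clustered genes in reads: H1fnt averaged 559 CPM in homozygous and 510.02 CPM in heterozygous libraries, and Hils1 averaged 428 CPM in homozygous and 451 CPM in heterozygous libraries. The part of poly(A) selection in this gap was not tested. Slbp averaged 84.3 ± 3.78 CPM in homozygous and 82.1 ± 1.64 CPM in heterozygous libraries (SD, n = 3 each).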

How the data were processed

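The libraries profiled testis RNA and ribosome footprints of juvenile Ythdc2 knockout mice and testis RNA of adult WLA mice. Per the submitters' processing notes STAR, mm10 and DESeq2 were used, with versions not given in the sources used here. Trizol served for extraction, per the labels' protocols.

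Raw read counts of 55566 features make up the adult table the authors deposited. It also holds mean scaled counts (a signal, per the file headers), log2 fold changes with their errors, a test score and p-values of the authors. For the juvenile ages the authors deposited anota2seq 1.14.0 effects with adjusted p-values. The base of the effects is not stated, and they were read as log2, knockout over controls as in the authors' description.

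Here adult counts passed filterByExpr and TMM scaling, which also gives the CPM printed, and edgeR 4.0.16 in R 4.3.3 compared the genotypes by its quasi-likelihood test, with Benjamini-Hochberg adjustment over all 22446 features tested. The biological coefficient of variation was 6.77%. Libraries of a group always differed beyond sampling noise, with a chi-square of at least 1.86 for each degree of freedom. DESeq2 1.42.0 was an alternative. Adult columns name the genotype alone, so age entered no fit. The labels number the animals, so replicates were taken as separate mice. The test was run on simulated data first. No new test was made on juvenile effects. To work back a regression slope, the translation effect was taken from the footprint effect and the rest divided by that of total RNA.

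The histone genes and the lists were chosen with earlier results of these data known. Genes were named if among the 6 highest adult CPM, the 3 highest or lowest effects per readout, past an adjusted p of 0.15 in the authors' tables, a testis variant, or a set companion. Prm1, Sycp3, Sox9 and the promoters shown were picked with values known. Older symbols were matched by gene ID. Alternatives covered scaling, filter, test, single libraries and the choice of genes. The exact permutation test planned for summed CPM is not given, because the summed genes were chosen with earlier results known. The result of 1 listed gene is not reported here.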

Additional observations from a re-analysis of the deposited data

How the results depend on the processing

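Clustered histone genes past an adjusted p of 0.05 in adult testis numbered 0 under all alternatives run, with a median log2 fold change of 0.061 to 0.17 and a summed CPM ratio of 1.004 to 1.064 when 1 library was left out. The adult call count over all features was 53, and became 159 at an adjusted p of 0.1, 595 without the filter and 198 by DESeq2. Leaving out 1 library gave 3 to 1917 calls, the last without heterozygous replicate 1, and the cause was not tested. A replicate block on the numbers of the adult columns gave 355 calls over all features and 0 histone genes; deviations of same-numbered columns correlated at 0.177, -0.0037 and 0.117, against at most 0.061 between different numbers, so pairing was neither established nor excluded. The juvenile tables allow no such fit. Among the adult genes with log2 fold changes run under the alternatives, signs turned when 1 library was left out, in genes near 0: the range was -0.061 to 0.33 for Hist1h1c, -0.14 to 0.091 for Hist1h1t, -0.10 to 0.23 for Hist1h1a, -0.072 to 0.17 for Hist3h2a, -0.0034 to 0.12 for Hist1h2bp and -0.019 to 0.14 for Hist1h2aa. Others kept their sign but moved widely, from -0.40 to -0.031 for Hist1h3a, 0.00012 to 0.26 for Hist1h4a, 0.051 to 0.36 for Hist1h2bc, 0.035 to 0.36 for Hist1h2ba and 0.23 to 0.62 for Hist1h1d.

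Chosen after seeing the data, the genes that keep a Hist1h symbol and 1 value for each histone type within each cluster both gave 100% below 0 in day 8 footprints and in day 8 footprint minus total RNA. The first set has 6 listed genes and leaves out Hist1h1t, the only gene above 0 in either. The second merges Hist1h1t into 1 value with the other H1 genes. Neither 100% therefore adds to the count over all listed genes. The genes that keep a Hist1h symbol also gave 100% in day 8 total RNA and 33.3% in day 10 total RNA, and 1 value per type gave 66.7% in day 10 total RNA and 58.3% in day 10 footprint minus total RNA. At an adjusted p of 0.15 in the authors' deposited table, 1 day 8 call was made against 0 at 0.05. Averaging genes of identical protein was not run, since no protein sequences were at hand. Depth limits the adult values: 48 of 67 genes lay under the filter.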
